A study of Mus musculus with 2 samples.

Results

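The probes described here are the 16194 noncontrol probes of an Agilent mouse expression array that carry a genomic interval in place of a transcript accession, out of 55676 noncontrol probes in all (29.1%). They were chosen by name alone, as those whose identifier holds a chromosome, a colon and a start and end position. Each name ends, for all but 13 probes, in F or R, which is read here as the strand, although no source used here states what the letter means. Probes of this kind are usually described as long noncoding RNA probes. The files hold nothing that shows whether an interval is transcribed into noncoding RNA, so they are called interval probes below.

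Left ventricular RNA of male mice aged 12 weeks was collected at ZT 2, that is, 2 h after lights on, and RNA of 6 animals per genotype was pooled and hybridized to 1 array. The *H-Bmal1*-/- mice carried floxed *Bmal1* alleles on a C57BL/6J background and a Cre transgene driven by the Myh6 (α-myosin heavy chain) promoter, which acts in cardiomyocytes, so the other cells of the ventricle keep *Bmal1*. The control mice, called wild type in the labels, carried the floxed alleles without Cre, and no array of mice with Cre alone is part of this comparison. The question of the comparison was which transcripts of the heart differed when cardiomyocytes lacked *Bmal1*, a transcription factor of the circadian clock.

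Long noncoding RNAs are transcripts that do not encode a protein. Some act in the nucleus, where they bring chromatin regulators to genes or keep them away, and others are spliced and exported, bind microRNAs or proteins, or are byproducts of transcription at enhancers and promoters. Many are made in a single cell type and at low level, and transcripts from opposite strands of a locus can be controlled separately. In the heart, long noncoding RNAs transcribed from the myosin heavy chain locus and from enhancers of cardiac genes are known.

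The probes carry 4610 names, counted by interval and strand, over 3543 intervals of the mm9 mouse genome on 20 chromosomes, and each name has 1 to 10 probes with a median of 3. Their lengths run from 62 bp to 7128487 bp with a median of 10676 bp. F names hold 8171 probes and R names 8010. Of the names, 2104 overlap another name of the same strand, and merging these leaves 3365 regions, so that many probes share a locus. Every interval probe is printed on the array a single time.

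A probe is called measured here if the scanner software flagged its signal as well above background on at least 1 of the 2 arrays. Processed signals are in linear scanner units after background subtraction. Ratios are differences of log2 signal, *H-Bmal1*-/- pool minus control pool, after subtracting each array's 75th percentile, 171 in the control pool and 190 in the *H-Bmal1*-/- pool. A difference of 1.5-fold or more, a fixed size and not a test, is what is counted as higher or lower. A single array stood for each genotype, so the spread between replicates is unknown, no p-value is given, and the differences compare these pools and not the genotypes. In pooled tissue, fewer cells of a type and less RNA per cell cannot be told apart.

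The arrays were alike in quality, with 49.4% of spots called above background in the control pool and a like share in the other. On the *H-Bmal1*-/- array *Arntl*, the gene of *Bmal1*, had a signal of 328 against 513 (log2 ratio -0.80), and *Nr1d1*, a clock repressor that is a direct target of *Bmal1*, had 101 against 385 (-2.09). All 10 fibroblast markers measured were higher (median 0.57, summed signal over the 75th percentile 458 against 307), and 9 of 10 cardiomyocyte markers were lower (median -0.26, sum 6485 against 7103). Of the other lists, 8 of 10 endothelial markers were lower (median -0.11), 7 of 9 macrophage markers were higher (0.06) and 5 of 8 smooth muscle and pericyte markers were lower (-0.16). The part of cell composition in the ratios of interval probes was not tested. Across 247 noncontrol probes printed at least 8 times, the SD of the log2 ratio between spots of a probe had a median of 0.07. Among the 56 of them with a control signal under 100, where 69.2% of the interval probes on both arrays lie, it was 0.19 and reached 0.43.

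Interval probes were measured less often than other probes and at lower signal. Of the 16194, 5015 (31.0%) were measured, compared with 23399 of 39482 other probes (59.3%). The share was 67.9% for probes named by a RefSeq mRNA, 44.0% for those named by a RefSeq noncoding transcript and 41.3% for those named by an Ensembl transcript. The remaining 11179 interval probes were not well above background on either array and have no ratio here. Measured interval probes had a median signal of 34.1 in the control pool and 35.8 in the *H-Bmal1*-/- pool, whereas the other probes had 201 and 223. Of the measured interval probes, 470 were well above background in the control pool alone and 532 in the *H-Bmal1*-/- pool alone, while 7.66% of the other probes were seen on a single array.

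Among the measured interval probes, 532 (10.6%) had a signal higher by 1.5-fold or more in the *H-Bmal1*-/- pool and 713 (14.2%) a lower one, where the background over all 28414 measured probes was 7.59% higher and 8.5% lower and that over the probes named otherwise 6.94% and 7.28%. Most of these were probes seen on a single array, 344 of those higher and 391 of those lower, for which the ratio is measured against a signal within the background. Among the 4013 interval probes well above background on both arrays, 188 (4.68%) were higher and 322 (8.02%) lower, and the background over all 25619 such probes was 4.4% and 5.34%. The share higher was thus near the background and the share lower was above it. This was not particular to interval probes. Of 1179 probes named by an Ensembl transcript on both arrays, 3.48% were higher and 6.79% lower. The shares were 4.55% and 4.35% for probes named by a RefSeq mRNA, and 5.60% for each direction for those named by a RefSeq noncoding transcript. At 2-fold, 58 (1.45%) were higher and 54 (1.35%) lower, where the background over all probes on both arrays was 1.45% and 1.28%, so that at this size both shares were near the background. The probes nearest the threshold on both arrays lay at 0.59 and 0.58 above it and below it on the higher side, and at -0.59 and -0.58 on the lower side.

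The whole distribution of interval probes sat slightly lower than that of other probes. Their median log2 ratio was -0.12, against -0.029 for the other probes and -0.041 for all probes, and 3134 (62.5%) were below 0, against 54.1%. On both arrays, the middle 50% of interval probes lay between -0.32 and 0.098, and the middle 90% between -0.69 and 0.56. Probes named by a RefSeq mRNA and by a RefSeq noncoding transcript had medians of -0.016 and -0.018, and those named by an Ensembl transcript had -0.086. The side of 0 depends on how the arrays are scaled. Without scaling the median of interval probes was 0.036, and 724 were higher and 495 lower. The shares of all probes without scaling are not given here. The difference to other probes, -0.086, was the same without scaling, since scaling shifts all probes alike.

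Because interval probes are dim and dim probes scatter more, the probes were compared within quartiles of mean signal set over all measured probes. The dimmest quartile held 49.9% of the interval probes, and the next ones held 30.2%, 13.8% and 5.98%. From the dimmest to the brightest quartile, the median ratio of interval probes was -0.12, -0.12, -0.11 and -0.10, and that of other probes -0.039, -0.047, -0.019 and -0.026. The lower median of interval probes was therefore present at every level of signal. The share at least 1.5-fold higher was 17.0%, 4.42%, 5.19% and 1.0% for interval probes and 18.9%, 6.09%, 3.65% and 2.67% for other probes. The share at least 1.5-fold lower was 23.0%, 6.06%, 5.62% and 2.0%, and 20.8%, 6.32%, 3.20% and 2.79%. Within a quartile the shares of both kinds of probe differed by at most 2.42 percentage points. In 2 of the 4 quartiles the share lower was not greater for interval probes, and in 3 of them the share higher was not.

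Strand was described from the 1067 intervals that have probes for both letters. In 450 of them at least 1 probe of each strand was measured, in 217 only the F strand, in 232 only the R strand, and in 168 neither. A further 1251 intervals have F probes alone and 1222 have R probes alone. Of F probes, 29.7% were measured, with a median ratio of -0.11, 293 higher and 334 lower. Of R probes, 32.2% were measured, with a median of -0.12, 239 higher and 379 lower. Between the strands of an interval the ratios were almost unrelated, with r = 0.13 and rho = 0.080 across 338 pairs of strand means on the same arrays. In 52 of these pairs 1 strand or both were past 1.5-fold, and in only 4 were both past it in the same direction. Detection varied little with length, as the share measured lay between 29.4% and 32.3% in quartiles of interval length.

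Probes of the same interval and strand were the internal check that the arrays allow. They share the RNA pools and the locus and are not replicates. Each name with at least 2 probes on both arrays gave 1 pair, the first 2 by probe name. Across 957 such pairs, r was 0.50 and rho 0.41, and 640 pairs (66.9%) lay on the same side of 0. Since 62.5% of all measured interval probes were below 0, many unrelated pairs would also share a side, and that share is not given here. Where a probe of the pair was past 1.5-fold (199 pairs), the other was on its side in 153 and also past 1.5-fold in 37. Neighboring intervals of a strand within 100 kb that did not overlap gave r = 0.17 and rho = 0.062 across 321 pairs. Probes within an interval were thus more alike than strands or neighbors.

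Calls on both arrays were shared by other probes of the interval more often than calls on 1 array. Of the 188 higher on both arrays, 158 had another measured probe of the same name, and in 97 of these (61.4%) another probe was also at least 1.5-fold higher. The corresponding numbers for the 322 lower were 238 and 115 (48.3%). For probes on a single array they were 208 and 72 (34.6%) among those higher and 233 and 79 (33.9%) among those lower. The same share for any measured probe is not given here, so these shares have no background beside them. Probes of an interval are each counted, so an interval with several such probes enters several times, and the shares do not count separate loci.

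With the strands of an interval counted apart, 2551 of the 4610 named intervals (55.3%) had at least 1 measured probe and 672 had 3 or more. In 300 of the 672 (44.6%) all measured probes lay on the same side of 0, 104 above and 196 below, and the median SD of the ratios within an interval was 0.25. Of the same 672, 306 held a probe past 1.5-fold, but in only 17 were all measured probes at least 1.5-fold higher and in only 6 at least 1.5-fold lower. Under normexp background correction, which adds an offset and shrinks dim ratios, these numbers were 9 and 2, and 74 interval probes in all were higher and 86 lower. The shares of all probes under normexp are not given here. Of 154 intervals with 5 or more measured probes, 23 lay wholly above 0, 31 wholly below, and 3 had every probe past 1.5-fold. The 17 and then the 6 are described next.

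The most uniform difference was at chr10:69669025-69686275, F strand. Its 5 probes had signals of 86.3, 121, 184, 187 and 197 in the control pool and 811, 1084, 1624, 1724 and 1791 in the *H-Bmal1*-/- pool. All 5 were higher in the *H-Bmal1*-/- pool, with log2 ratios from 2.99 to 3.08 and a mean of 3.03 (8.18-fold). A second name inside it, chr10:69679644-69682458, F strand, had 3 probes, of which 2 went from 165 to 1444 and from 119 to 1211 (2.98 and 3.19), while the other was below background on both arrays. On the R strand of the first interval 2 of 5 probes were measured, with ratios of 0.93 and 3.38, the latter on 1 array only. Of the 10 highest ratios among interval probes on both arrays, 7 came from these overlapping F names.

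Overlapping names were also both higher at chr6:40693617-40720167, F strand. Of its 5 probes, 3 were measured, with signals of 13.2, 6.83 and 11.2 in the control pool and 74.2, 60.3 and 104 in the *H-Bmal1*-/- pool (log2 ratios 2.34, 2.99 and 3.06). The overlapping chr6:40699474-40719122, F strand, went from 12.5 to 110 and from 6.87 to 64.3 (2.99 and 3.08). All of these were near or below background in the control pool and well above it in the *H-Bmal1*-/- pool.

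A locus on chromosome 3 carried 3 such names on the F strand. The 4 probes of chr3:146629425-146649125 had control signals of 70.4, 101, 211 and 218 and *H-Bmal1*-/- signals of 266, 388, 731 and 710 (log2 ratios 1.55 to 1.79, mean 1.69, 3.22-fold). The 3 probes of chr3:146645022-146646977, which overlaps it, went from 113, 129 and 201 to 444, 522 and 667 (1.58 to 1.87). The 3 probes of chr3:146515333-146557069, 72.4 kb away, went from 91.0, 94.9 and 165 to 268, 314 and 497 (1.41 to 1.57). All 10 probes of the locus were thus higher by a similar amount, whereas the single measured R probe there had a ratio of -0.24. Elsewhere on the chromosome, the 4 probes of chr3:40439525-40509975, F strand, went from 113, 126, 126 and 126 to 249, 283, 298 and 313 (0.99 to 1.17, mean 1.07), and its measured R probe was at 0.0036.

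On chromosome 10, the 5 probes of chr10:83181374-83249774, F strand, had control signals of 26.8, 95.2, 171, 193 and 224 and *H-Bmal1*-/- signals of 79.1, 302, 545, 664 and 644 (log2 ratios 1.37 to 1.63, mean 1.49). The 3 probes of chr10:83185606-83225506, F strand, which lies inside it, went from 117, 128 and 138 to 260, 270 and 274 (0.84 to 1.00). The R strand was not higher, with 2 probes at -0.58 and 0.023. Another F name with nearly the same ends, chr10:83181374-83249918, had 1 of 5 probes measured, at -0.13. The size of the difference on the F strand of this locus therefore varied with the name.

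Measured probes of both strands lay above 0 at chr1:183783306-183834531. Of its 4 R probes, 3 were measured and went from 44.1, 50.1 and 50.8 to 84.9, 107 and 98.5 (log2 ratios 0.79 to 0.94). The overlapping chr1:183832694-183834125, R strand, went from 239, 279 and 454 to 502, 538 and 832 (0.72 to 0.92). On the F strand 8 of 10 probes were measured, 4 of them on both arrays, and all lay above 0 with ratios from 0.18 to 2.13 and a mean of 0.94. The rest were detected on 1 array only, so their side of 0 was partly set by the detection filter.

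At chr15:62090565-62091770, F strand, 3 probes went from 28.1, 36.1 and 75.3 to 103, 123 and 211 (log2 ratios 1.33 to 1.72). The adjoining F name chr15:62007025-62090191 had ratios of 1.15 and 1.69, and chr15:62046023-62082530 had a mean of 0.60. Not all F names there were higher, since chr15:62164419-62165018, 72.6 kb away, had a single measured probe at -3.12, in the control pool alone, and the long name over the locus, chr15:61984389-62102500, ranged from -0.35 to 2.38.

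Of the remaining intervals higher throughout, chr13:34027900-34052050, F strand, went from 26.9, 48.5 and 65.5 to 71.5, 95.8 and 136 (mean log2 ratio 1.00), and chr19:46422690-46423478, R strand, from 42.7, 48.4 and 80.9 to 86.3, 89.9 and 159 (mean 0.81). At chr8:90048940-90049461, F strand, 3 probes went from 34.8, 13.2 and 5.44 to 120, 59.5 and 28.5 (1.63 to 2.24), and the overlapping chr8:89996710-90049453, F strand, had ratios of 1.69 and 1.69. At chr19:19005109-19008657, R strand, probes went from 58.4, 16.1 and 4.08 to 122, 62.5 and 18.6. At chr13:34027900-34052050 and chr19:46422690-46423478 all 3 probes were above background on both arrays. At chr8:90048940-90049461 only 1 of 3 was, and at chr19:19005109-19008657 2 of 3. The remaining probes of these intervals were above background in the *H-Bmal1*-/- pool alone.

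For a probe above background in a single pool the ratio is open-ended. A minimum was computed against the higher of its own signal and the lowest signal called well above background on the other array, 11.1 on either. This is not a strict limit. Some probes with higher signals were not called, such as 1 at 13.9 in the *H-Bmal1*-/- pool and 1 at 13.8 in the control pool. The words "at least" below hold only for a limit of 11.1, and a higher limit would give smaller minima. By the minimum, 374 interval probes were higher and 606 lower by 1.5-fold or more. The share of all probes by this minimum is not given here, so these counts have no background beside them. By it, 15 of the 17 intervals and all 6 kept every probe past 1.5-fold. In chr19:19005109-19008657 and chr3:58118325-58136550 this was by a small margin, with a probe at 1.51-fold and 1.53-fold. The 2 that did not were chr17:10057283-10075014, F strand, and chr10:66383049-66386347, F strand. In the former all 3 probes were under 2.70 in the control pool and at 18.1, 18.8 and 36.5 in the *H-Bmal1*-/- pool, at least 1.47-fold, 1.53-fold and 2.97-fold higher. In the latter they went from 10.9, 22.1 and 2.72 to 21.2, 43.6 and 13.5.

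Among intervals lower throughout, chr19:56815544-56821403, R strand, had the lowest mean ratio of those measured on both arrays in every probe. Its 3 probes had signals of 658, 779 and 389 in the control pool and 140, 186 and 105 in the *H-Bmal1*-/- pool, with log2 ratios of -2.38, -2.22 and -2.04 (mean -2.21, 4.64-fold lower). The next interval, chr19:56820850-56837925, overlaps it at 1 end, and its probes lay between -0.071 and 0.029 on the R strand and between -0.10 and 0.013 on the F strand.

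Differences at the other intervals were smaller or rested on 1 array. The 5 probes of chr2:77146893-77155643, R strand, went from 28.3, 31.2, 32.7, 36.0 and 47.0 to 14.6, 15.8, 19.5, 20.3 and 25.03 (log2 ratios -1.14 to -0.90), and 3 probes of the overlapping chr2:77152807-77155092, R strand, were at -0.61 to -0.32. The 3 probes of chr13:53100475-53113850, F strand, went from 47.4, 176 and 365 to 32.1, 95.9 and 211 (-1.03 to -0.72). At chr15:68170864-68171544, R strand, they went from 16.1, 54.4 and 108 to 10.8, 38.6 and 66.7 (-0.85 to -0.65), and the 5 probes of the overlapping chr15:68161768-68193518, R strand, had a mean of -0.63. Both chromosome 2 and chromosome 15 loci thus had a further R name on the same side of 0.

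In chr13:113555055-113564665, F strand, 3 probes were above background in the control pool alone, with 42.0, 64.6 and 72.2 against 7.64, 13.3 and 11.1. The first was at least 4.22-fold lower, and the others were 5.38-fold and 7.23-fold lower as measured, since their own signals exceeded the lowest called one. In chr3:58118325-58136550, F strand, 3 of 5 probes were measured, and the unmeasured ones had ratios of 0.093 and 0.56 within the background. Of the 3, 1 on both arrays went from 94.3 to 55.9 (-0.91). The others, 34.0 and 15.2 in the control pool, were at least 3.41-fold and 1.53-fold lower. Among the 5 lowest mean ratios with all probes below 0 were also chr9:118291593-118324230 and chr2:93400724-93404518, both F strand, whose means rest on ratios against background. In the former, 4 of 6 probes were measured. Those on both arrays had 273 and 274 (-0.14) and 24.0 and 14.2 (-0.90), and those in the control pool alone were at least 5.42-fold and 2.60-fold lower. In the latter, the probe on both arrays had 15.3 and 13.2 (-0.37), and the others were at least 2.72-fold and 1.55-fold lower.

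Several of the lowest single ratios were not shared by their interval. At chr10:93774693-93893616, F strand, 1 probe went from 398 to 70.2 (log2 ratio -2.66), while the other 2 went from 20.7 to 22.9 and from 54.6 to 61.4 (-0.0067 and 0.017). At chr13:94182877-94203852, R strand, a probe at 95.7 and 12.6 (-3.08) stood beside 4 others from -1.09 to 0.60, both of these on 1 array. At chr7:16584852-16657252, F strand, a probe at 110 and 26.3 (-2.21) stood beside 6 other measured probes from -0.31 to 0.46, among them signals of 1781 and 1621. In each of the 3 intervals the probe was thus far from the others of its name.

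The rest of the 10 lowest and 10 highest on both arrays, beside the probes of the intervals above, had few or no other measured probes of their name. At chr9:113650590-113670786, F strand, the probe went from 675 to 146 (-2.36) and the other measured probe was at 0.32. At chr6:31017987-31174287, F strand, a probe at 127 and 21.3 (-2.73) stood beside measured ratios of -3.14 and 0.45, both on 1 array. The probes of chr8:72178035-72200445, F strand (63.8 and 14.7, -2.27), and chr4:16119250-16149850, R strand (109 and 26.2, -2.20), had no other measured probe. On the higher side, the probe of chr4:41261959-41267670, F strand (12.6 and 77.3, 2.47), had none either, and that of chr1:182686731-182709331, R strand (15.1 and 87.0, 2.37), stood beside others at -0.060 and 0.23, the former at signals of 3071 and 3272.

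The largest minimum differences came from probes at background in 1 pool. In the *H-Bmal1*-/- pool a probe of chr2:174428737-174439062, F strand, had 591 against 8.89, at least 48.1-fold higher, while its other 4 probes were below background in both pools. Those of chr17:27877526-27878437, F strand (178 against 2.31), chr6:126445920-126446242, R strand (170 against 3.14), and chr16:93121505-93142255, F strand (149 against 2.31), were at least 14.5-fold, 13.9-fold and 12.1-fold higher. The spots of the chromosome 17 and chromosome 16 probes lie side by side on the array, in row 87 and columns 93 and 94, and the part of that position in the result was not tested. Of the other probes of these 3 intervals, 1 on chromosome 16 was measured, at 15.2 against 2.22.

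In the control pool, a probe of chr13:24833082-24838461, F strand, had 318 against 2.41, at least 31.9-fold lower in the *H-Bmal1*-/- pool, with its other 2 probes below background. The probes of chr8:34646787-34680312 (174 against 2.45), chrX:50400250-50410825 (143 against 2.70) and chr17:33995525-34028025 (102 against 4.81), all F strand, were at least 17.4-fold, 14.3-fold and 10.3-fold lower. Another probe of the chromosome 8 interval, 25.6 against 2.73, was also lower, by at least 2.57-fold. In the chromosome X interval the other measured probe was at 53.5 and 54.4 (-0.13).

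The brightest interval probes differed little. The 5 with the highest mean signal were at chr2:168804720-168854970, R strand (129153 and 137592), chr14:78924115-78938125, F strand (82098 and 82460), chr19:5801802-5802597, R strand (73461 and 75321), chr17:17481706-17482457, R strand (63370 and 75142), and chr12:73838608-73862621, R strand (62027 and 61678). Their log2 ratios were -0.060, -0.15, -0.12, 0.094 and -0.16. At the chromosome 19 and chromosome 17 intervals all 3 probes were bright, from 9610 to 75321, with ratios between -0.13 and 0.10. At the chromosome 2, 14 and 12 intervals the other probes were below 100, many of them not well above background, so the bright probe stood alone.

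The 3 names without a strand letter hold 13 probes. The 5 probes of chr17:12941161-12944859 had control signals from 61.7 to 221 and *H-Bmal1*-/- signals from 74.2 to 291, with ratios from 0.091 to 0.37. The 3 of chr3:34856791-34869544 and the 5 of chr6:52032838-52033444 were not measured.

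By chromosome, the share of interval probes measured ranged from 23.4% on chromosome 9 to 38.5% on chromosome 19, and all 20 medians were below 0, from -0.16 on chromosome 8 to -0.054 on chromosome 3. The side of 0 of these medians depends on the scaling, which moved all ratios by 0.15, and medians of other probes by chromosome are not given here. Over all chromosomes 14.2% of measured interval probes were lower and 10.6% higher, and of all measured probes 8.5% and 7.59%. Chromosome 7 had the largest share lower, 52 of 238 (21.8%), with 16 higher (6.72%). On both arrays it held 31 lower and 5 higher of 198, and none of them lay in the intervals above with every probe past 1.5-fold. Chromosome 10 had the largest share higher, 33 of 188 (17.6%), with 20 lower (10.6%), and 21 of the 33 came from the intervals named above or names within 100 kb of them. The high share of chromosome 10 thus rested on a few loci with several probes each. Shares of other probes by chromosome are not given here, so whether the shares of chromosomes 7 and 10 are particular to interval probes was not tested.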

How the data were processed

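The data are 2 single-color Agilent arrays, 1 per genotype, each hybridized with Cy3-labeled cRNA from a pool of 6 left ventricles. The deposited intensities are the processed signal of Agilent Feature Extraction, background-subtracted and on a linear scale, with flags (0 or 1) for spots well above background, saturated or outlying. Version 10.5.1.1 is named in the submitters' processing notes and the paper, and 10.10.1.1 in the headers of the scanner files. A deposited value table, used as an alternative, held the same signals times a factor for each array (log2 2.45 for control and 2.31 for *H-Bmal1*-/-), which scales the arrays against each other, and how the authors chose that factor is not known.

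From 59305 noncontrol spots, 269 flagged as outliers were left out, none of them an interval probe. Log2 signals had the 75th percentile of the array subtracted, and spots of a probe were averaged. No interval probe was saturated. The number of arrays limits the precision, and no test across replicates was possible. Named are the 10 highest and 10 lowest ratios on both arrays, the 4 largest minima in each direction, the 5 brightest probes, the 5 intervals in each direction with the largest mean ratio among those with at least 3 measured probes all on the same side of 0, and, chosen after their values were seen, the further intervals with every probe past 1.5-fold. The members and lists were chosen with earlier results of these data known. Alternatives were other scalings (quantile, cyclic loess, the median of probes on both arrays, 7 E1A spike-in probes, none), normexp background correction with offset 50, other filters, outlier spots kept, other thresholds and 1 value per interval. Normexp used the median signal, since the mean signal is not in the scanner output used here. Minima for probes on 1 array and counts by interval were added after seeing the data. Coordinates are those of the interval names, in mm9, the build of the scanner output. The gene table at hand is of another build (GRCm38.p6), was used for symbols only, and nearest genes and sequences were not analysed here. Python 3.11.15 (pandas 2.3.3, numpy 2.4.6, scipy 1.17.1) and R 4.3.3 with limma 3.58.1 were used. The calls were tested on simulated data.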

Additional observations from a re-analysis of the deposited data

How the results depend on the processing

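No paired analysis was possible because each genotype has 1 array, and leaving out a replicate was not possible for the same reason. Results on nearest genes were not run. Without scaling, the median of interval probes turned from -0.12 to 0.036, with 724 higher and 495 lower, and intervals of 3 or more measured probes lay wholly above 0 in 187 cases and wholly below in 92, against 104 and 196. Cyclic loess gave 601 higher and 610 lower, and quantile normalization 590 and 637, against 532 and 713. The median over all measured probes was -0.041 with scaling and 0.11 without. The median of interval probes minus that of other probes stayed below 0 under each alternative run, between -0.088 and -0.019, the latter with no filter. No scaling, E1A scaling and median scaling shift each array by a constant and cannot change this difference, which was -0.086 in all of them. Quantile normalization, cyclic loess and normexp can change it and gave -0.071, -0.068 and -0.069. Normexp with its offset left 74 higher and 86 lower, with 9 and 2 intervals past 1.5-fold in every probe. Requiring both arrays gave 188 and 322, and every probe was at least 1.5-fold higher in 12 intervals and at least 1.5-fold lower in 3. No filter gave 1580 and 2358 of all 16194 interval probes, a 2-fold threshold 303 and 321, and a lower threshold of log2 0.32 890 and 1418. With 1 value for each of the 2551 measured names, 271 were higher and 380 lower. Except with both arrays required, shares of all probes under these alternatives are not given here. The counts by alternative therefore have no background beside them. With detection required on both arrays, 269 intervals had neither strand above background in place of 168.

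Of 109 probes named or in the intervals named, those that changed sign lay near 0 or at background. Without scaling they were the bright probes of chr2:168804720-168854970 (0.091), chr14:78924115-78938125 (0.0063) and chr19:5801802-5802597 (0.036) and 1 of chr9:118291593-118324230 (0.0072), and under normexp the first of these (0.019) and 1 of chr10:66383049-66386347 (-0.027). All 109 kept their direction under the other alternatives run. Size depended on background correction where signals were dim. Under normexp the mean ratio fell from 3.04 to 0.38 at chr17:10057283-10075014 and from 2.80 to 0.91 at chr6:40693617-40720167. At chr13:113555055-113564665 it went from -2.63 to -0.86. The brighter chr10:69669025-69686275, F strand, went from 3.03 to 2.65, and chr19:56815544-56821403 from -2.21 to -1.77. Signals near 11.1, where probes pass into background, limit what can be said of the dim interval probes.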
